A study of Mus musculus with 12 samples.

Results

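The genes described here are 5 annexins (Anxa1, Anxa2, Anxa3, Anxa4 and Anxa5) and 4 S100 genes (S100a4, S100a6, S100a10 and S100a11). They were taken by name, with earlier results of these data known, as 9 of the 24340 rows of the deposited expression table. RNA of both retinas of 6 mice was sequenced, which gave 12 libraries in 4 groups of 3. All mice, controls included, were 12–16 weeks old and carried p16-3MR, a transgene in which the p16Ink4a regulatory region drives a luciferase and a red fluorescent protein fused to HSV thymidine kinase. The kinase makes ganciclovir (GCV) toxic to the cells that hold it, so that only cells with an active p16 regulatory region are targeted. Intraocular pressure (IOP) was raised to 85–90 mm Hg for 60 min in one eye of each mouse, and the other eye was left as the control. Mice 3, 4 and 6 received no GCV (groups control and IOP), and mice 1, 2 and 5 received 25 mg/kg GCV daily for 3 days (groups control GCV and IOP GCV). Retinas were taken at day 3.

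Annexins are calcium-dependent proteins that bind acidic phospholipids on the inner face of membranes, where they take part in vesicle traffic, membrane repair and the linking of membranes to actin. S100 proteins are small EF-hand calcium sensors that act by binding other proteins, and several pair with an annexin: S100a10 with Anxa2, and S100a11 with Anxa1. In retina both families are known from Müller glia, astrocytes, vessels and white blood cells, and several of their members are used as marks of reactive glia.

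Values are FPKM, fragments scaled by transcript length and by the mapped fragments of the library, so that levels can be set side by side between genes. Depth estimated from the steps between low values was 3990000 fragments in the IOP retina of mouse 6 and up to 9060000 in the others, with a median of 7835000. The fewest fragments of any of the 9 genes in a library were then about 12.3, for Anxa3 in the control retina of mouse 3, and all 9 were above 0 in every library. The IOP retina of mouse 6 gave a value above 0 for 14844 genes, where the remaining libraries gave one for 16044 to 16593. The 8 rod markers summed to between 30180 and 55780 FPKM in every library, as is known of mouse retina. The 9 retinal ganglion cell (RGC) markers summed to 835–1055 FPKM in control and 1054–1674 in control GCV retinas. They summed to 305–676 FPKM in IOP GCV retinas and to 204, 922 and 376 in the IOP retinas of mice 3, 4 and 6, so that mouse 4 was within the range of the controls.

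The 4 S100 genes lie on chromosome 3 within 2961 kb (RefSeq positions on GRCm38.p6, a patch release of mm10). S100a4 (chr3:90603770-90606045) ends 6.85 kb before S100a6 (chr3:90612894-90614414), and S100a11 (chr3:93520496-93526288) ends 28.8 kb before S100a10 (chr3:93555117-93564645). The annexins are scattered: Anxa1 at chr19:20373434-20390671, Anxa2 at chr9:69453683-69491792, Anxa3 at chr5:96793385-96845968, Anxa4 at chr6:86736840-86793634 and Anxa5 at chr3:36448923-36475887. Reads of S100a11 may be shared with the processed copy S100a11-ps, not analysed here, so its level is uncertain to that extent.

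Promoter sequence from RefSeq, 250 bases before to 50 bases after a start site, was at hand for 7 of the 9 genes in 8 entries. As 8 of the 9 genes rose in the averaged comparison of IOP-treated with control retinas, these windows were searched on both strands for motifs of factors known from injured tissue. The AP-1 motif TGANTCA was in 2 of the 8 entries, at 95 bases before the start of Anxa2 and at 136 and 38 bases before that of S100a11. It was in 7.81% of all 32851 promoters of this length. The STAT motif TTCNNNGAA was in 0 of the 8 entries and in 8.3% of all promoters. The NF-kB motif was in 1 entry, 55 bases before the first start of Anxa4, and in 4.51% of all promoters. The 3 promoters with a match are shown 5′ to 3′ along the gene, with the matches in capitals. They lie at chr9:69453433-69453732 (plus strand), chr3:93520246-93520545 (plus strand) and chr6:86793535-86793834 (minus strand).
Anxa2: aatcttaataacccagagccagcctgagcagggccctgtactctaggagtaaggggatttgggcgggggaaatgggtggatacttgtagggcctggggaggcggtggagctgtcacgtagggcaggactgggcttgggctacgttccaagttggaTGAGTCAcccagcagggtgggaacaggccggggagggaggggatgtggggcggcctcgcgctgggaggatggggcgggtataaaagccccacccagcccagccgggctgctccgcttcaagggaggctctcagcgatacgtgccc
S100a11: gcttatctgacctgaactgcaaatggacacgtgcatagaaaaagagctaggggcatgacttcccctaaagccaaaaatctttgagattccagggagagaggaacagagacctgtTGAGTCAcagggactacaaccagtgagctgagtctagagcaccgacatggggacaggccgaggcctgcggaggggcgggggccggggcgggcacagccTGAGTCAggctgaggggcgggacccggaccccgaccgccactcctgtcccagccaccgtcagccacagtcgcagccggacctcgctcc
Anxa4: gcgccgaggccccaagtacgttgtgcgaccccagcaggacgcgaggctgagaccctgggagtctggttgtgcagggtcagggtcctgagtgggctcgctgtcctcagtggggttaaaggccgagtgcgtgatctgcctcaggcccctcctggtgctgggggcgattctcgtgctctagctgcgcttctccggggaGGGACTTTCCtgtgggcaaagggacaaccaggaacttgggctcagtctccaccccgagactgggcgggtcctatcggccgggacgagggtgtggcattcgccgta

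After IOP elevation all 9 genes had a higher mean than in the control retinas, with and without GCV, and 8 of the 9 rose when the effect was averaged over both treatments. The steepest rises were in S100a6, S100a4 and S100a11, with log2 fold changes of 2.60, 2.40 and 2.40. Among the annexins Anxa3 rose most, by 1.81, and Anxa5, the most abundant annexin in the controls, was the gene that missed the threshold, at 0.49. Fold changes are on log2(FPKM + 1), which understates the change of low genes, and were tested with limma across all 18509 genes above 0 in any library, with Benjamini-Hochberg adjusted p-values called under 0.05. Among all genes 6.76% were called higher in this averaged comparison, and 12.2% in either direction. The median log2 fold change was 1.38 over the 9 genes and 0.0089 over all genes tested. As the 9 were chosen with earlier results of these data known, the values over all genes are a background and not a test of the set. Both eyes of a mouse share the animal: with the mouse as a block, 6 of the 9 were called higher, against 4.83% of all genes, and Anxa1 and Anxa2 were no longer called. Fits without 1 library called 5 to 8 of the 9, while the count over all genes in either direction, 2258 in the full fit, ran from 830 to 4515. The fewest, 5 of the 9, were called when the control retina of mouse 2, 3, 4 or 5 or the IOP retina of mouse 3 was left out, fits that called 830 to 1282 of all genes. In bulk RNA, a change in the number of cells of a type and a change in RNA per cell cannot be told apart.

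**Figure D1:**
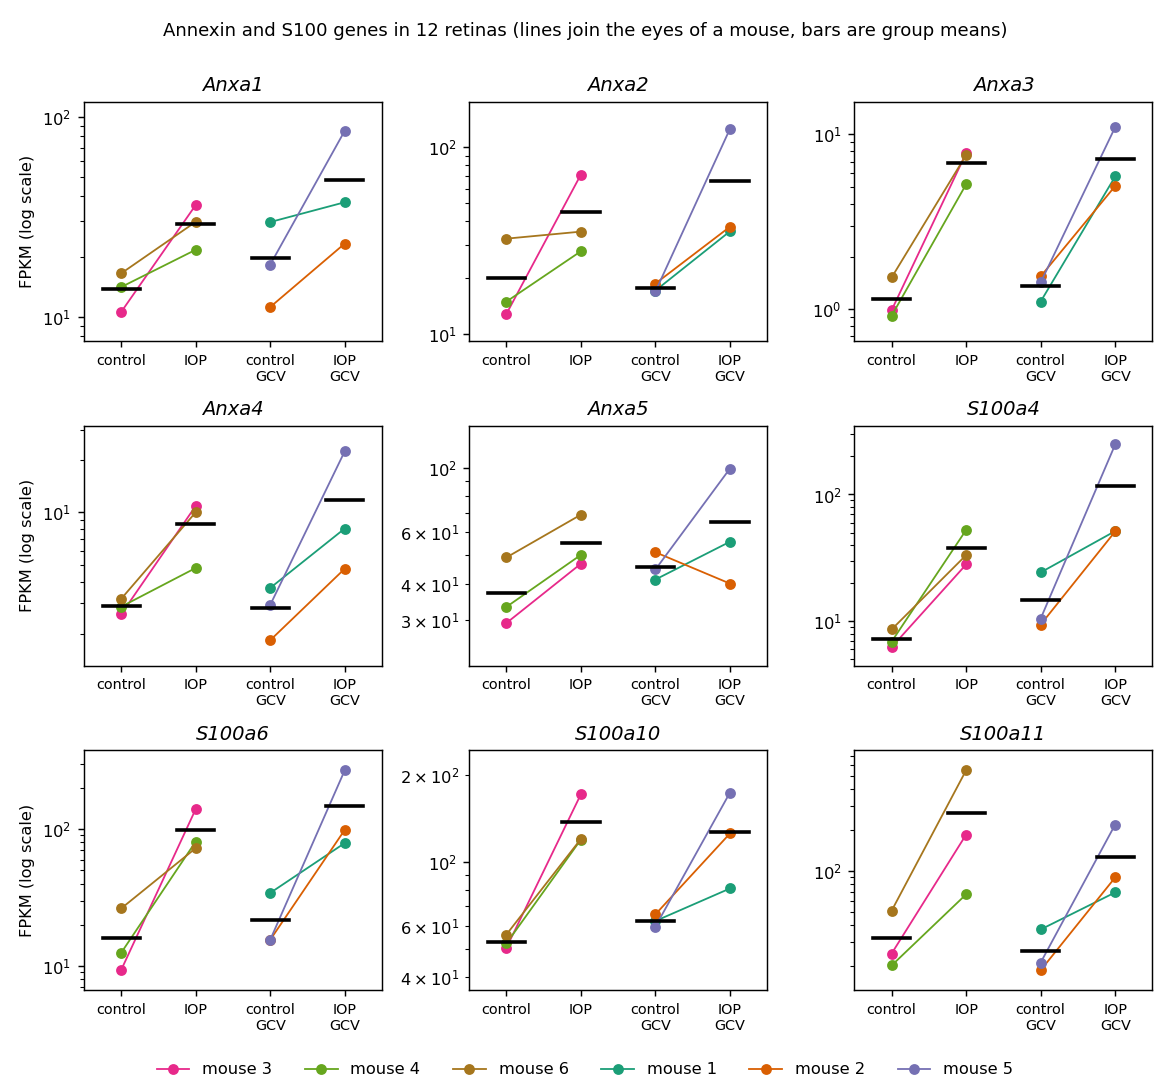
FPKM (log axis) of the 9 genes in the 12 retinas by group, with lines joining the eyes of a mouse and black bars for group means. The lines go up in all 6 mice for 8 genes; in Anxa5 the line of mouse 2 goes down, from 51.2 to 40.0 FPKM.

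Anxa1, which signals through formyl peptide receptors and limits the entry of white blood cells, stood at 10.6, 14.1 and 16.5 FPKM in the control retinas of mice 3, 4 and 6. In their IOP retinas it stood at 36.2, 21.7 and 29.9 FPKM. In mice 1, 2 and 5, with GCV, it was 29.8, 11.2 and 18.2 FPKM in control and 37.4, 23.3 and 85.1 in IOP GCV retinas. The groups without GCV did not overlap; with GCV they did, since the control retina of mouse 1 was above the IOP retina of mouse 2. Averaged over both treatments, the log2 fold change was 1.09 ± 0.32 (SE; limma adjusted p = 0.0497). The adjusted p was 0.0540 with the mouse as a block, and the gene stayed past the threshold in 3 of 12 fits without 1 library (those without the IOP retina of mouse 4, the control retina of mouse 1 or the IOP GCV retina of mouse 2).

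Anxa2, which forms a tetramer with S100a10 and binds tissue plasminogen activator and plasminogen at cell surfaces, was at 12.8, 14.9 and 32.4 FPKM in control and 71.3, 27.7 and 35.3 in IOP retinas of mice 3, 4 and 6. In mice 1, 2 and 5 it was at 17.1, 18.6 and 16.9 FPKM in control GCV and 35.4, 37.5 and 125 in IOP GCV retinas. Here the groups with GCV were apart, and those without overlapped because the control retina of mouse 6 was above the IOP retina of mouse 4. Over both treatments the log2 fold change averaged 1.36 ± 0.36 (SE; limma adjusted p = 0.0386), with 0.0670 under the mouse block. Of 12 fits without 1 library, 4 kept the call (those without the control retina of mouse 6, the IOP retina of mouse 4 or the IOP GCV retina of mouse 1 or 2).

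Anxa3, the lowest of the 9 and an annexin found in neutrophils and microglia, had the most even response. It was at 0.990, 0.920 and 1.52 FPKM in control and 7.83, 5.19 and 7.63 in IOP retinas of mice 3, 4 and 6. With GCV it was at 1.11, 1.54 and 1.42 FPKM in control and 5.75, 5.07 and 11.01 in IOP retinas of mice 1, 2 and 5. The 6 IOP-treated retinas were all above the 6 controls, by 3.29-fold to 7.90-fold within a mouse. The averaged log2 fold change was 1.81 ± 0.19 (SE; limma adjusted p = 0.000586), and the call was held in 12 of 12 fits without 1 library and with the mouse as a block (adjusted p = 0.00675).

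Anxa4, an annexin of epithelia that binds membranes and lowers their fluidity, was at 2.59, 2.87 and 3.18 FPKM in control and 10.9, 4.79 and 10.0 in IOP retinas of mice 3, 4 and 6. Under GCV it was at 3.68, 1.84 and 2.93 FPKM in control and 8.08, 4.74 and 22.5 in IOP retinas of mice 1, 2 and 5. All 6 IOP-treated retinas were above all 6 controls. Averaged over treatments, Anxa4 rose by 1.38 ± 0.33 on the log2 scale (SE; limma adjusted p = 0.0272; 0.0396 with the mouse as a block), and 6 of 12 fits without 1 library kept the call; it was lost without the control retina of mouse 2, 3, 4, 5 or 6 or the IOP retina of mouse 3.

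Anxa5, which binds the phosphatidylserine that dying cells expose, was at 29.3, 33.3 and 49.2 FPKM in control and 46.8, 50.2 and 68.9 in IOP retinas of mice 3, 4 and 6. Mice with GCV gave 41.3, 51.2 and 44.7 FPKM in control and 55.7, 40.0 and 99.2 in IOP retinas of mice 1, 2 and 5. The groups overlapped under both treatments. The averaged log2 fold change of 0.49 ± 0.21 (SE) missed the threshold (limma adjusted p = 0.156), and its 95% interval was 0.012 to 0.96.

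S100a4, which binds non-muscle myosin and is known from migrating cells, fibroblasts and white blood cells, was at 6.25, 6.92 and 8.62 FPKM in control and 28.1, 52.5 and 33.3 in IOP retinas of mice 3, 4 and 6. In mice given GCV it was at 24.3, 9.42 and 10.5 FPKM in control and 51.4, 51.1 and 248 in IOP retinas of mice 1, 2 and 5. The control retina of mouse 1 was the highest control, yet all 6 IOP-treated retinas were above it. Mouse 5 had the largest difference between eyes of any of the 9 genes, 23.6-fold. S100a4 rose by a log2 fold of 2.40 ± 0.40 over both treatments (SE; limma adjusted p = 0.00601), with 0.0295 under the mouse block.

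S100a6, or calcyclin, a protein of dividing and reactive cells, was at 9.36, 12.5 and 26.4 FPKM in control and 140, 81.0 and 72.6 in IOP retinas of mice 3, 4 and 6. Values under GCV were 34.2, 15.6 and 15.5 FPKM in control and 79.1, 98.7 and 268 in IOP retinas of mice 1, 2 and 5. The 6 IOP-treated retinas were all above the 6 controls, with a gap from the highest control, 34.2 FPKM in mouse 1, to the lowest IOP retina, 72.6 FPKM in mouse 6. Over both treatments S100a6 rose by 2.60 ± 0.37 on the log2 scale (SE; limma adjusted p = 0.00248), with 0.0258 under the mouse block.

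S100a10, or p11, the partner of Anxa2 that also carries ion channels and serotonin receptors to the cell surface, was the most abundant of the 9 in the controls. It was at 50.3, 52.1 and 56.0 FPKM in control and 171, 119 and 120 in IOP retinas of mice 3, 4 and 6. With GCV it was at 62.3, 65.7 and 59.6 FPKM in control and 80.8, 125 and 173 in IOP retinas of mice 1, 2 and 5. The 6 controls lay close together, and all 6 IOP-treated retinas were above them, with mouse 1 nearest. S100a10 rose by 1.14 ± 0.17 on the log2 scale, averaged over treatments (SE; limma adjusted p = 0.00302), with 0.0196 under the mouse block.

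S100a11, or calgizzarin, the partner of Anxa1, was at 24.6, 20.1 and 51.0 FPKM in control and 186, 67.3 and 553 in IOP retinas of mice 3, 4 and 6. With GCV it was at 37.1, 18.6 and 21.1 FPKM in control and 69.5, 89.6 and 220 in IOP retinas of mice 1, 2 and 5. All 6 IOP-treated retinas were above all 6 controls, and the highest value was that of mouse 6, the shallowest library. The averaged log2 fold change was 2.40 ± 0.50 (SE; limma adjusted p = 0.0161), with 0.0195 under the mouse block. S100a4, S100a6, S100a10 and S100a11 were each called in 12 of 12 fits without 1 library.

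Levels per length were ordered by their means. In the 6 controls the means were 57.7 FPKM for S100a10, 41.5 for Anxa5, 28.8 for S100a11, 18.9 for S100a6, 18.8 for Anxa2, 16.7 for Anxa1, 11 for S100a4, 2.85 for Anxa4 and 1.25 for Anxa3. Neighbours in this order overlapped, except that every control value of S100a4 was above every one of Anxa4, and every one of Anxa4 above every one of Anxa3. In the 6 IOP-treated retinas S100a11 led with 198 FPKM, followed by S100a10 with 132, S100a6 with 123 and S100a4 with 77.4. Anxa5 followed with 60.1 FPKM, Anxa2 with 55.4, Anxa1 with 38.9, Anxa4 with 10.2 and Anxa3 with 7.08. In these retinas every neighbouring pair overlapped, and parts of the order rested on 1 library. Without the IOP retina of mouse 6 the mean of S100a11 was 126 FPKM, below S100a10 at 134.0 and S100a6 at 133, and Anxa2 at 59.4 was above Anxa5 at 58.4. Without the IOP GCV retina of mouse 5 the mean of S100a4 was 43.3 FPKM, below Anxa5 at 52.3. In the controls, Anxa2 and S100a6 changed places without mouse 1, and Anxa1 and Anxa2 without mouse 6.

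The known binding partners were set against each other as a ratio of FPKM in each library. S100a10 over Anxa2 had a median of 3.53 (range 1.73 to 3.93) in the 6 controls and 2.87 (1.39 to 4.30) in the 6 IOP-treated retinas. S100a11 over Anxa1 had a median of 1.54 (1.16 to 3.09) in controls and 3.48 (1.86 to 18.5) in IOP-treated retinas, and the value of 18.5 was that of mouse 6. Both ranges overlapped between controls and IOP-treated retinas. Within mice, S100a11 over Anxa1 was higher in the IOP-treated eye of each mouse, from 1.24 to 1.86 in mouse 1 and from 3.09 to 18.5 in mouse 6. S100a10 over Anxa2 was higher in the IOP-treated eye of mice 4 and 6 and lower in that of mice 1, 2, 3 and 5. No test was run.

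Without GCV, 3 of the 9 genes were called higher after IOP elevation, against 1.42% of all genes: Anxa3 by 1.87 ± 0.26 on the log2 scale (SE; limma adjusted p = 0.0115), S100a6 by 2.60 ± 0.52 (0.0374) and S100a10 by 1.34 ± 0.24 (0.0253). The other six had log2 fold changes of 0.57 to 2.66 with limma adjusted p of 0.0942 or more. In 7 of the 9 genes the 3 IOP retinas were all above the 3 controls, as in 11.7% of all genes. With the mouse as a block, Anxa3 alone was called (adjusted p = 0.0485), against 0.389% of all genes. Blocked adjusted p was 0.145 for S100a6 and 0.0837 for S100a10. Leaving out 1 library gave 0 to 4 called genes, and the share of all genes called higher moved too. It was 0 of the 9 without the control retina of mouse 3 (0.125% of all genes) or of mouse 4 (0.141%), and 1 without the IOP retina of mouse 3 (0.582%). It was 2 without the control (0.558%) or the IOP retina (0.984%) of mouse 6, and 4 without the IOP retina of mouse 4 (5.25%).

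With GCV, 3 of the 9 genes were called higher, against 1.65% of all genes: Anxa3 by 1.75 ± 0.26 on the log2 scale (SE; limma adjusted p = 0.0113), S100a6 by 2.60 ± 0.52 (0.0350) and S100a4 by 2.60 ± 0.56 (0.0499). The other six had log2 fold changes of 0.40 to 2.14 and limma adjusted p of 0.0771 or more. In 7 of the 9 genes the groups did not overlap, as in 14.5% of all genes. With the mouse as a block, Anxa3 alone was called (adjusted p = 0.0439), against 0.751% of all genes. Blocked adjusted p was 0.123 for S100a6 and 0.119 for S100a4. S100a4 was called in 1 of 6 fits without 1 library, where its log2 fold change ran from 1.85 (without the IOP GCV retina of mouse 5) to 3.01 (leaving out mouse 1's control eye), and its limma adjusted p was 0.0531 with median-ratio scaling of the libraries and 0.102 with only the groups compared. Leaving out the control retina of mouse 1, 2 or 5 left 0 called genes (against 0.417%, 0.401% and 0.482% of all genes). Leaving out the IOP GCV retina of mouse 5 left 1 (1.12%), of mouse 1 left 3 (1.38%) and of mouse 2 gave 4 (3.68%).

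**Figure D2:**
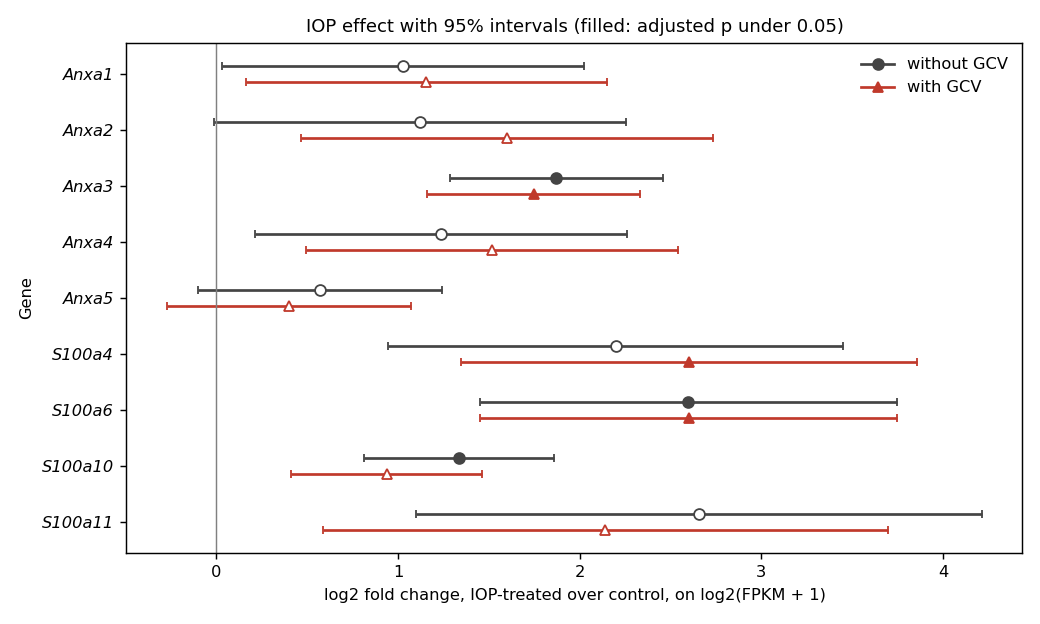
Log2 fold change of IOP-treated over control retinas on log2(FPKM + 1), with 95% intervals from limma, without GCV (circles) and with GCV (triangles), 3 retinas a group; filled symbols have an adjusted p under 0.05. Anxa3 and S100a6 are filled under both treatments, and the paired intervals overlap in all 9 genes.

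The comparison of mice with and without GCV was made because GCV is meant to clear p16-expressing cells. All mice carried the transgene, so an effect of clearing cannot be told apart from other effects of GCV or from differences between mice. Of the 9 genes, 0 were called in the difference between the IOP effects with and without GCV, as were 0 of all genes with limma, where 358 genes (1.93%) and 0 of the 9 had an unadjusted p under 0.05. The differences, with GCV minus without, ran from -0.52 in S100a11 (95% interval -2.72 to 1.68) to 0.48 in Anxa2 (-1.12 to 2.08). In Anxa3 the difference was -0.12 (-0.95 to 0.70), and in S100a10 it was -0.40 (-1.14 to 0.34). In S100a6 it was 0.0017 (-1.62 to 1.63). All 9 intervals held 0, and the narrowest, that of S100a10, also spanned differences in both directions. Within IOP-treated retinas alone, GCV against no GCV called 0 of the 9 and 0 of all genes with limma (774 genes, 4.18%, and 0 of the 9 at an unadjusted p under 0.05). S100a4 had the largest difference, 1.22 (95% interval -0.030 to 2.48), and S100a11 the lowest, -0.77 (-2.33 to 0.78). Each rested largely on 1 library: the S100a4 difference was 0.47 without the IOP GCV retina of mouse 5, and that of S100a11 was -0.0087 once the IOP library of mouse 6 was left out and -1.52 once that of mouse 4 was. Within control retinas it again called 0 of the 9 and 0 of all genes with limma (295 genes, 1.59%, and 0 of the 9 at an unadjusted p under 0.05), with differences from -0.26 in S100a11 to 0.82 in S100a4. The former became 0.13 without the control retina of mouse 6, and the latter 0.42 without that of mouse 1. The IOP effect with GCV, the difference between the effects and the comparisons of GCV share samples.

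Within mice, the IOP-treated eye was higher than the control eye in all 6 mice in 8 of the 9 genes, as in 10.7% of all genes. In 6 of the 9, all 6 IOP-treated retinas were above all 6 controls, as in 5.47% of all genes. The median fold between eyes was 6.41 in S100a6, 6.18 in S100a11, 5.41 in Anxa3 and 4.96 in S100a4. It was 2.87 in Anxa4, 2.22 in S100a10, 2.04 in Anxa2, 1.94 in Anxa1 and 1.46 in Anxa5. Mouse 5 had the largest log2 change between eyes in 7 of the 9 genes, mouse 3 in S100a10 and mouse 6 in S100a11. Mouse 1 had the smallest in 5 of the 9. The IOP GCV retina of mouse 5 was the highest of the 12 in 8 genes, and the control retina of mouse 6 the highest of its group in 9 of 9.

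**Figure D3:**
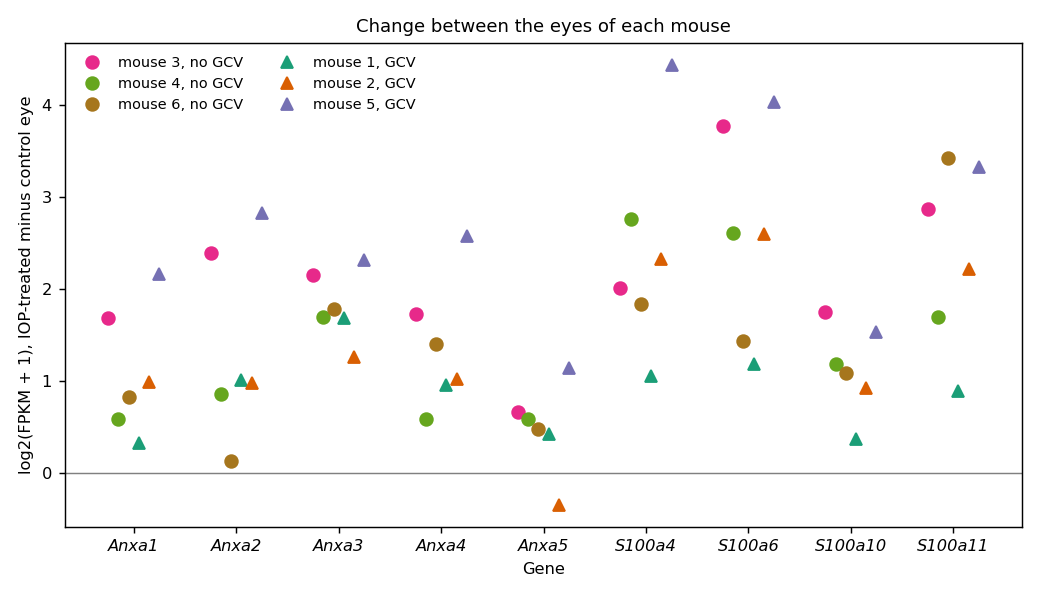
Difference in log2(FPKM + 1) between the IOP-treated and the control eye of each mouse, for the 9 genes; circles are mice without GCV and triangles mice with GCV. Values run from -0.35 (Anxa5, mouse 2) to 4.43 (S100a4, mouse 5), and only the former is below 0.

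Across the 12 libraries the 36 pairs of these genes had Pearson correlations of log2(FPKM + 1) from 0.64 to 0.94 (median 0.85). After group means were taken out, they ran from 0.35 to 0.93 (median 0.66). These are a description, since the pairs share libraries, mice and the IOP contrast. Over the same libraries, the genes most like the mean of the 9, each scaled to its own mean and spread, were D8Ertd82e (r = 0.981), the chloride channel gene Clic1 (0.979), the galectin gene Lgals1 (0.979), the lipid droplet coat gene Plin2 (0.978) and Sash3, an adaptor of lymphocytes (0.975). They were the 5 closest of 12880 other genes whose mean reached 1 FPKM.

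In the rest of the annexin family, 1 of 7 genes was called higher in the averaged IOP effect, against 6.76% of all genes, and 0 lower. It was Anxa7, an annexin of secretory granules, with 21.3–24.8 FPKM in controls and 25.0–34.3 in IOP-treated retinas, a log2 fold change of 0.28 (limma adjusted p = 0.0344; 0.0697 with the mouse as a block). For Anxa6, the annexin with a longer core of repeats, the log2 fold change was -0.065 (adjusted p = 0.855), and for Anxa11, at a mean of 1.00 FPKM, it was 0.16 (0.614). Anxa7 was called in 3 of 12 fits without 1 library. Anxa8, Anxa9, Anxa10 and Anxa13 had means under 1 FPKM.

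In the rest of the S100 family, 5 of 9 genes tested were called higher, against 6.76% of all genes, and 1 lower. S100a5, S100g and S100z were at 0 in every library. S100a8 and S100a9, which together form the calprotectin of neutrophils, had log2 fold changes of 3.63 (limma adjusted p = 0.0142) and 2.73 (0.0270). S100a8 was at 0.579–11.6 FPKM in controls and 10.97–267 in IOP-treated retinas, and the highest values of both were those of mouse 5. S100a13, which takes part in the release of factors without signal peptide, rose by 1.03 (0.00604), S100a16 by 0.79 (0.00865) and S100a1, the S100 gene with the highest level in the table at a mean of 205 FPKM, by 0.67 (0.0331). S100b, a mark of astrocytes and Müller glia, fell by 0.94 on the log2 scale (0.0174; 0.0511 with the mouse as a block), and was lower in the IOP-treated eye of all 6 mice. S100a8, S100a13, S100a16 and S100b were called in 12 of 12 fits without 1 library, S100a9 in 8 and S100a1 in 4. The median log2 fold change was 0.67 over these 9 genes and 0.11 over the 7 other annexins.

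**Figure D4:**
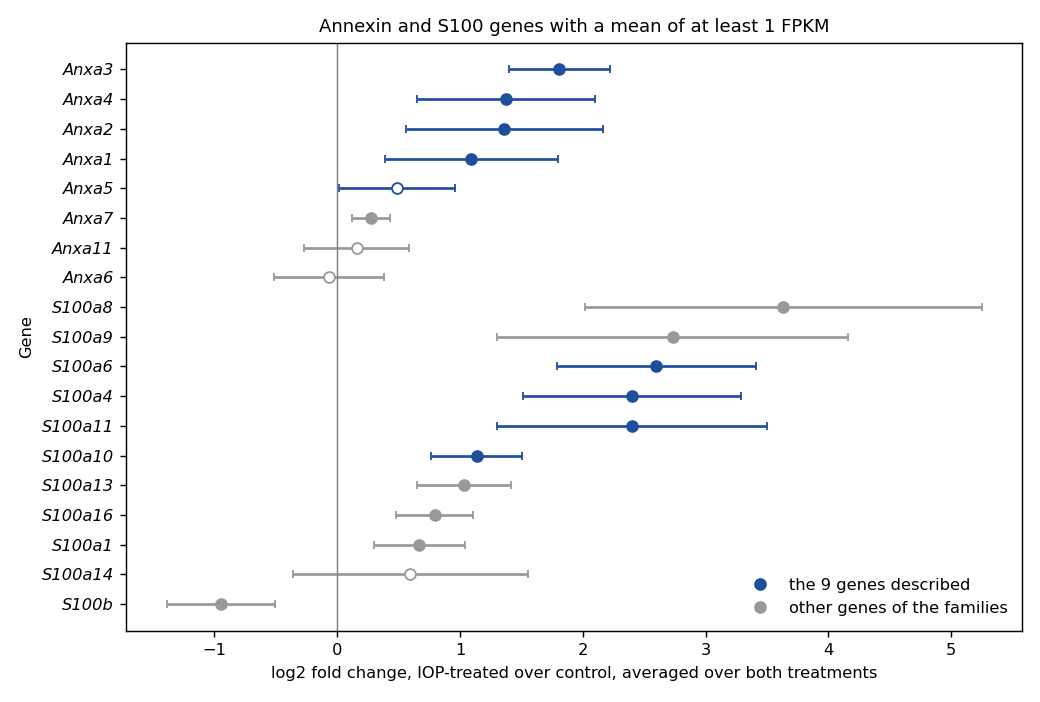
Log2 fold change of IOP-treated over control retinas averaged over both treatments, with 95% intervals from limma, for the annexin and S100 genes whose mean reached 1 FPKM; filled symbols have an adjusted p under 0.05. S100a8 lies farthest to the right at 3.63, and S100b is the one filled symbol below 0, at -0.94.

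Of 21 listed binding partners and receptors, 19 were tested. In the averaged comparison 4 were called higher, against 6.76% of all genes, and 1 lower. The urokinase receptor gene Plaur rose by 1.50 on the log2 scale (limma adjusted p = 0.00523) and the urokinase gene Plau by 1.17 (0.0174). Plat and Plg did not pass: Plat, which encodes tissue plasminogen activator, was at 0.35 (0.414) and lower in the IOP-treated eye of mouse 6, and Plg, which encodes plasminogen, was at a mean of 0.0321 FPKM in the 6 controls and higher in the IOP-treated eye of 0 of 6 mice. Myh9, the heavy chain of the myosin that S100a4 binds, rose by 0.94 (0.0153), and Pla2g4a, the phospholipase that Anxa1 and S100a10 restrain, by 0.69 (0.0429; 0.0839 with the mouse as a block). Htr1b, a serotonin receptor gene whose product S100a10 carries, fell by 1.47 on the log2 scale (0.0462; 0.0737 with the mouse as a block). The most abundant partner genes did not pass: Cacybp and Sugt1, both binding partners of S100a6, had log2 fold changes of 0.34 (0.203) and 0.21 (0.150), and Dlc1 of -0.18 (0.0719). Plaur and Myh9 were called in 12 of 12 fits without 1 library, Plau in 11, Pla2g4a and Htr1b in 2. Pla2g4a and Htr1b, because they were called, and Plat and Plg were named after their values were seen.

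Of 11 listed genes of membrane repair, 1 was called higher in the averaged comparison, against 6.76% of all genes, and 0 lower. Myof, a ferlin that acts in membrane fusion and repair, rose by 1.41 (limma adjusted p = 0.00643) and had r = 0.974 with the mean of the 9 genes over the 12 libraries. The calcium sensor gene Syt7 was at -1.05 on the log2 scale (0.0552) and Trim72, at a mean of 0.366 FPKM, was at 0.46 (0.102). The abundant Chmp4b, Cav1 and Pdcd6 were at 0.15 (0.428), 0.096 (0.756) and 0.20 (0.215).

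Markers of some other cells also rose after IOP elevation, and those of others did not. In the averaged comparison 0 of 10 endothelium markers and 0 of 8 markers of pericytes and smooth muscle were called. The same held for 0 of 11 retinal pigment epithelium, 0 of 7 blood and 0 of 8 rod markers. The 14 markers of infiltrating white blood cells with a row summed to 9.66–45.8 FPKM in control and 313–677 in IOP retinas, and to 9.29–22.9 in control GCV and 154–2200 in IOP GCV retinas. These sums were mostly Lyz2, the lysozyme gene of macrophages and neutrophils, which made up 62.9–87.7% of them in the 6 controls and 80.1–93.2% in the 6 IOP-treated retinas. The other 13 summed to 2.76–5.63 FPKM in control and 35.5–57.8 in IOP retinas, and to 2.20–3.77 in control GCV and 30.8–150.4 in IOP GCV retinas. In the averaged comparison 8 of 13 were called higher and 0 lower, with or without the mouse as a block, Mpo was at 0 in every library and Ly6g had no row. The 10 reactive glia markers summed to 144–285 FPKM in control and 761–907 in IOP retinas, and to 169–202 in control GCV and 804–2033 in IOP GCV retinas; 10 of 10 were called higher (9 with the mouse as a block). Of 10 microglia markers 6 were called higher (5 with the block) and 1 lower, with sums of 51.7–71.7 and 164–224 FPKM without GCV and 57.8–62.0 and 136–294 with GCV. Mouse 5 had the highest sum of all 3 lists, and the control retina of mouse 6 had the highest control sum of all 3. For the 9 genes summed, mouse 5 was also highest of the 12, but the highest control retina was that of mouse 1 (251 FPKM, against 245 in mouse 6). Among IOP retinas without GCV the 9 genes were lowest in mouse 4 (430 FPKM) and highest in mouse 6 (931). Reactive glia markers were there highest in mouse 4 (907 FPKM) and lowest in mouse 6 (761). The part of these cells in the rise of the annexin and S100 genes was not tested.

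Lens markers summed to 4.13–22.1 FPKM in control and 48.2–2428 in IOP retinas, and to 39.6–3987 in control GCV and 1650–3200 in IOP GCV retinas, the highest being the control retina of mouse 1. That retina was also the highest control for Anxa1, Anxa4, S100a4 and S100a6. Of 11 lens markers tested 7 were called higher, Cryge was at 0 throughout, and the part of lens RNA was not tested. Corneal and surface epithelium and stromal fibroblast markers were highest in the IOP retina of mouse 3, with 146 and 107 FPKM, and 0 of 8 in either list was called. That retina was also the highest of the IOP group without GCV for 6 of the 9 genes, and the part of such RNA was not tested. Müller glia markers ran the other way, with 2 of 8 called lower (1 of 8 with the mouse as a block) and 0 higher, as did RGC markers, with 7 of 9 called lower (2 of 9 with the mouse as a block).

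**Figure D5:**
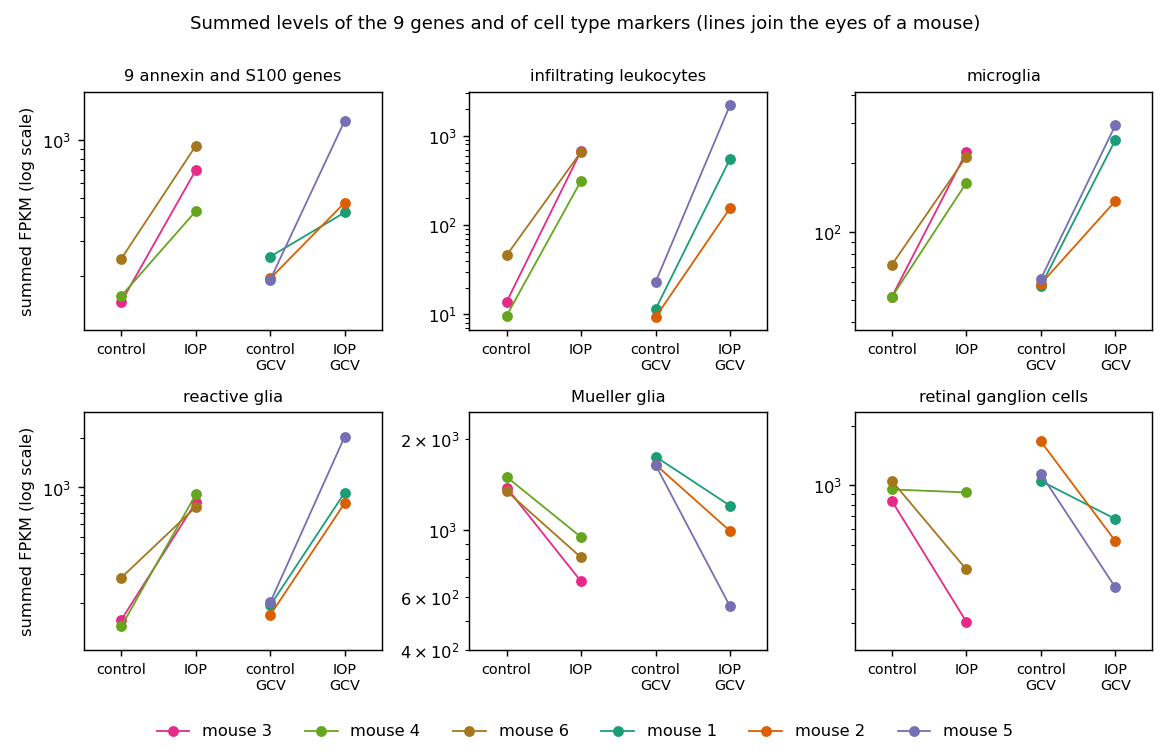
Summed FPKM (log axis) of the 9 annexin and S100 genes and of 5 marker lists in the 12 retinas by group, with lines joining the eyes of a mouse. The sum of the 9 genes is 147–251 FPKM in the 6 controls and 423–1253 in the 6 IOP-treated retinas, and mouse 5 is highest for the 9 genes, white blood cells, microglia and reactive glia.

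The IOP-treated retinas of mouse 5, the highest library for 8 of the 9 genes, and mouse 6, the shallowest, were left out together. This fit was added after the values were seen, and leaving out mouse 5 was not independent of the values of the 9 genes. The averaged comparison then called 6 of the 9 genes higher, against 6.79% of all genes: Anxa1, at a log2 fold change of 0.83 (limma adjusted p = 0.107), and Anxa2, at 1.12 (0.0581), missed the threshold. S100a11 stood at 1.77 (0.0201), S100a4 at 2.06 (0.00288), S100a6 at 2.42 (0.00344), Anxa4 at 1.02 (0.0360), S100a10 at 1.05 (0.00276) and Anxa3 at 1.62 (0.000565). Without GCV 4 of the 9 were called, against 3.85% of all genes, S100a4 being added (2.27, adjusted p = 0.0161). With GCV Anxa3 alone was called (1.44, adjusted p = 0.0133), against 2.02% of all genes. The difference between treatments then had an unadjusted p under 0.05 in S100a10, at -0.74, with an adjusted p of 1.00 (limma).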

How the data were processed

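Total RNA of 12 retinas was sequenced by the authors as stranded mRNA libraries, and the authors deposited 1 table of expression values with a column per retina and 24340 gene rows. The values are FPKM as deposited by the authors (the unit was read from the values and the tools named). The submitters' processing notes name TopHat2, Bowtie2, Cufflinks, Cuffdiff and mm10, whereas the study's methods describe exon counts of RefSeq genes with HOMER, so the exact path is not settled and fragment counts were not used in tests. Depth was estimated from the spacing of low values (72.2–79.1% of them within 0.1 of a whole number of fragments), and tests were not run on such estimates.

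The 5831 rows at 0 in every library were left out, which left 18509 genes. log2(FPKM + 1) was fitted in R 4.3.3 with limma 3.58.1 (4 group means, variance trend), and p-values were adjusted by the Benjamini-Hochberg method over all genes and called under 0.05. Comparisons were IOP against control without GCV, with GCV and averaged over both, the difference of these effects, and mice with GCV against mice without it, for IOP-treated eyes and for control eyes. Intervals are 95% intervals from that fit. The fit was tested on simulated data. Of the row names 27 were date-like and matched no gene listed here.

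Groups came from the sample labels, and the mouse number pairs the eyes of 1 animal. The deviations of the eyes of mice 1 to 6 from their group means correlated at -0.12, 0.13, 0.21, 0.39, 0.17 and 0.10 (Pearson's r over 12910 genes whose mean reached 1 FPKM). A fit with the mouse as a block (without the comparisons between mice, which it cannot give) was run beside the main one. Other alternatives were a pseudocount of 0.1, only genes that reached 1 FPKM in 3 libraries, median-ratio scaling, the compared groups alone, each library left out, and the IOP-treated retinas of mice 5 and 6 left out, the last chosen after the data were seen.

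The 9 genes and the gene lists (other family members, binding partners and receptors, membrane repair, cell type markers) were chosen with earlier results of these data known. The partner list was counted without 1 gene that is not reported here, and its unnamed genes are covered by counts alone. All 9 genes are named; other annexins and S100 genes are named from a mean of 1 FPKM, partner and repair genes if among the 3 with the highest mean or the 3 with the smallest adjusted p for the averaged IOP effect, and the 5 genes with the highest correlation with the mean of the 9. Plots were drawn with matplotlib 3.10.9.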

Additional observations from a re-analysis of the deposited data

How the results depend on the processing

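For IOP against control without GCV, 306 genes were called, and 464 with a pseudocount of 0.1, 75 with the mouse as a block, 896 without the IOP-treated retinas of mice 5 and 6 and 23 to 2490 when 1 library was left out (2490 without the IOP retina of mouse 4). Of the 9 genes 3 were called there, 1 with the mouse as a block and 0 to 4 without 1 library. With GCV, 334 genes were called, and 535 with a pseudocount of 0.1, 144 with the mouse as a block, 92 with only the groups compared and 77 to 716 without 1 library. Of the 9 genes 3 were called, 1 with the block, 0 with only the groups compared, 1 without the IOP-treated retinas of mice 5 and 6 and 0 to 4 without 1 library. For the averaged effect, 2258 genes were called, 1351 with the block and 830 to 4515 without 1 library. Of the 9 genes 8 were called, 6 with the block and 5 to 8 without 1 library. Median-ratio scaling put Anxa1 at an adjusted p of 0.0506 (limma). No direction of the 9 genes turned in these 3 comparisons under any alternative, and beyond the calls given here and in the results the block changed none of theirs.

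For the difference between treatments, 0 genes were called, 1 without the IOP-treated retinas of mice 5 and 6 and 0 to 2 without 1 library. For GCV in IOP-treated retinas, 0 were called, 1 without those retinas and 0 to 4 without 1 library. For GCV in control retinas, 0 were called, 1 with a pseudocount of 0.1, 1 with only the groups compared and 0 to 3 without 1 library. Of the 9 genes 0 were called in these 3 under every alternative run. The log2 difference between treatments changed sign without 1 library in Anxa1 (-0.37 to 0.54), Anxa2 (-0.11 to 0.87), Anxa3 (-0.43 to 0.066), Anxa4 (-0.29 to 0.73), Anxa5 (-0.52 to 0.12), S100a4 (-0.35 to 0.81), S100a6 (-0.53 to 0.36) and S100a11 (-1.26 to 0.25). The log2 difference between mice with and without GCV in control retinas ran without 1 library from -0.55 to 0.13 in S100a11 and from 0.42 to 1.06 in S100a4, and in IOP-treated retinas from -1.52 to -0.0087 and from 0.47 to 1.60, alternatives added after the values were seen. The difference between treatments also turned in S100a6 with a pseudocount of 0.1 (-0.022) and with median-ratio scaling (-0.013). Without the IOP-treated retinas of mice 5 and 6 it turned in Anxa1 (-0.34), Anxa2 (-0.21), Anxa4 (-0.15), S100a4 (-0.41) and S100a6 (-0.71). The cause was not tested. With 3 mice a group, the spread between mice limits every comparison.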
